A study of Mus musculus with 12 samples.

Results

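The mitochondrial calcium uniporter complex and the transporters that work beside it were followed in sorted kidney cells through 8 genes, Mcu, Mcub, Mcur1, Micu2, Micu3, Smdt1, Letm1 and Slc8b1. They are the rows of the deposited gene table that carry these symbols, 8 of 23378 genes, and all 8 passed the filter on low counts. Mcub was chosen by its levels in these same libraries, and the other 7 were put beside it, with earlier results known, for their place in mitochondrial calcium transport. The uniporter is a channel in the inner mitochondrial membrane that lets calcium from the cytosol and from nearby endoplasmic reticulum into the matrix, driven by the membrane potential. MCU subunits form the pore, and MCUB is a paralogue that can take the place of MCU subunits and lowers the current. MICU proteins gate the pore by sensing calcium, and EMRE, encoded by Smdt1, is a small subunit the animal channel needs to open. Macula densa cells form a small plaque in the distal nephron that senses tubular salt, and calcium signals take part in their control of glomerular filtration and renin release.

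Mice of strain C57BL/6 with the genetic model nNosCreERT2-mTmG all carried an inducible Cre under the nNos gene and a dual-colour membrane reporter. Recombined macula densa cells were green, other kidney cells were red with tdTomato, and the sort took green cells and the most intensely red cells from digested cortex. A group of mice ate control diet, and a group ate low salt diet (TD 90228) with enalapril, an angiotensin-converting enzyme inhibitor, at 150 mg/L in the drinking water, for 14 days, and are called treated below. There were 2 macula densa libraries and 4 control-cell libraries on each diet. The labels give neither age nor tamoxifen dosing, and do not say whether libraries came from separate animals, so p-values measure the spread between libraries, which may be technical. Low salt and enalapril were always given together, so their effects cannot be told apart.

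The libraries held 4259020 to 14856542 counts, of which nuclear protein-coding genes took 781257 to 2331481 and the 8 genes together 248 to 1335. Levels below are in CPM, the counts of a gene scaled to the size of its library, and 3 counts corresponded to 0.231 to 0.734 CPM. Summed CPM of 4 macula densa markers (Nos1, Pappa2, Ptgs2 and Slc12a1) was 2113 to 3057 in the macula densa libraries and 42.1 to 431 in the control cells. For 4 thick ascending limb markers (Umod, Cldn16, Kcnj1 and again Slc12a1) it was 2108 to 2712 and 109 to 863. The part of thick ascending limb cells in the macula densa libraries was not tested. The control cells were meant to stand for distal tubule and collecting duct. In them 5 principal cell markers summed to 85.5 to 635 CPM. In macula densa cells 4 distal convoluted and connecting tubule markers summed to 54.2 to 135 CPM, which overlapped 47.5 to 389 CPM in the control cells. Their 5 endothelial markers summed to 34.0 to 1067 CPM and their 4 podocyte markers to 37.9 to 1218 CPM, against 9.84 to 113 and 4.43 to 134 CPM in the macula densa cells. The 4 smooth muscle and renin cell markers summed to 99.9 to 527 CPM in control cells and 19.0 to 36.9 CPM in macula densa cells. The control population thus held markers of other cell types at levels that its label does not name. Control-cell replicate 4 on control diet stood apart from the other 3, with endothelial markers at 34.0 CPM against 549 to 1067 and principal cell markers at 635 against 103 to 348 CPM. The main differences that rest on that group are therefore given with and without it. In treated mice, control-cell replicate 3 had the highest macula densa marker sum of its group, at 431 against 146 to 221 CPM. Its thick ascending limb markers were at 863 against 212 to 675 CPM. It is the treated control-cell library that overlaps macula densa cells in Mcur1 and Micu3 below, and the part of its composition was not tested. In bulk libraries, fewer cells of a type and less RNA per cell cannot be told apart.

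Mcub and Mcu encode the inhibitory and the conducting pore subunit. Mcub (ENSMUSG00000027994) lies on the minus strand at chr3:129914960-129970206 and Mcu (ENSMUSG00000009647) on the minus strand at chr10:59446984-59616692, in assembly GRCm38. The stretch of exon 6 that encodes the conserved pore motif is shown for both genes because their counts are set against each other below. The sequences come from the GENCODE M21 transcripts, are 84 bases long and read 5′ to 3′, and capitals mark the 23 bases that differ between them.
Mcu, chr10:59454979-59455062: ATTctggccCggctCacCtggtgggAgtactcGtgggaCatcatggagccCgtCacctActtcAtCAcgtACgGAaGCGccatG
Mcub, chr3:129916972-129917055: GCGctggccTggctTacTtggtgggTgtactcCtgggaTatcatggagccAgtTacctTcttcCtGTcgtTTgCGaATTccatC
The pore motif takes bases 37 to 48 of the stretch, where 1 base differed, against 8 of the bases before it and 14 of those after it. Across the stretch, 11 of 28 encoded residues differed, and the 2 whole proteins were identical at 41.3% of 344 aligned residues. The longest run of bases shared by the 2 longest transcripts was 12, so they share no long stretch over which counting could split reads.

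Mcub was high in macula densa cells and higher again in those of treated mice. Since its pattern was known when it was chosen, its values are a description and carry no p-value. In macula densa cells on control diet it measured 7.59 and 7.17 CPM, from 74 and 88 counts. In treated mice it measured 28.4 and 26.4 CPM, from 148 and 161 counts. The control cells on control diet gave 2.19, 1.22, 0.476 and 0.207 CPM, from 2 to 20 counts. The treated control cells gave 0.845, 2.45, 1.47 and 0.814 CPM, from 7 to 11 counts. Every macula densa library lay above every control-cell library, and both treated macula densa libraries lay above both on control diet, while the control cells of the 2 diets overlapped. Of all genes tested, 6.02% were higher in macula densa cells on both diets with no overlap. Between the diets, 40.6% did not overlap in macula densa cells and 4.2% in control cells, where the groups are larger.

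The fitted difference between macula densa and control cells in Mcub was 2.85 on the log2 scale (SE 0.56, a 7.20-fold level) on control diet. In treated mice it was 4.43 (SE 0.57), a 21.5-fold level. Within macula densa cells the treated libraries stood 1.89 above those on control diet (SE 0.62), a 3.71-fold level. In control cells the same difference was 0.31 (SE 0.57), with a 95% interval from -0.94 to 1.56. The diet difference in macula densa cells exceeded that in control cells by 1.58 (SE 0.84), with a 95% interval from -0.25 to 3.41. Since Mcub was chosen by these same values, its intervals describe the precision of the fit and are not a test. Without control-cell replicate 4 on control diet, which held 2 Mcub counts, the difference between the cells on control diet was 2.52 and the diet difference in control cells was -0.04. The excess of the diet difference in macula densa cells then rose from 1.58 to 1.94. Without control-cell replicate 1 of that diet, it fell from 1.58 to 0.89.

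The label descriptions give 4 numbers that each occur once in a macula densa and once in a control-cell library on the same diet. In those 4 pairs Mcub was 2.43 to 4.68 higher in macula densa cells on the log2 CPM scale, with a median of 3.40. In the control cells on control diet, the 4 Mcub levels fell in the same order as the endothelial marker sums, which were 1067, 849, 549 and 34.0 CPM, and as the podocyte sums. The macula densa marker sums ran in the reverse order, at 42.1, 61.4, 224 and 310 CPM, as did the thick ascending limb and principal cell sums. In treated mice neither order held. Endothelial sums there were 239, 617, 160 and 857 CPM, and macula densa sums were 221, 197, 431 and 146 CPM. The part of other cell types in the control-cell level was not tested. The 8 leukocyte markers summed to 1.15 to 4.31 CPM in the macula densa libraries, where Tyrobp was at 0 in every library, and to 5.25 to 111 CPM in the control cells. Among the control cells, replicate 1 on control diet had the highest leukocyte sum (76.98 CPM) and the highest Mcub of its group, and replicate 4 had the lowest of both (8.68 CPM). Treated control-cell replicate 2 had the highest of both in its group (111 CPM). Among the other replicates of each group the order was reversed. Replicates 2 and 3 on control diet had leukocyte sums of 35.8 and 42.7 CPM and Mcub at 1.22 and 0.476 CPM. Treated replicates 1, 3 and 4 had sums of 13.7, 5.25 and 65.1 CPM and Mcub at 0.845, 1.47 and 0.814 CPM. The part of leukocytes was not tested.

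**Figure D1:**
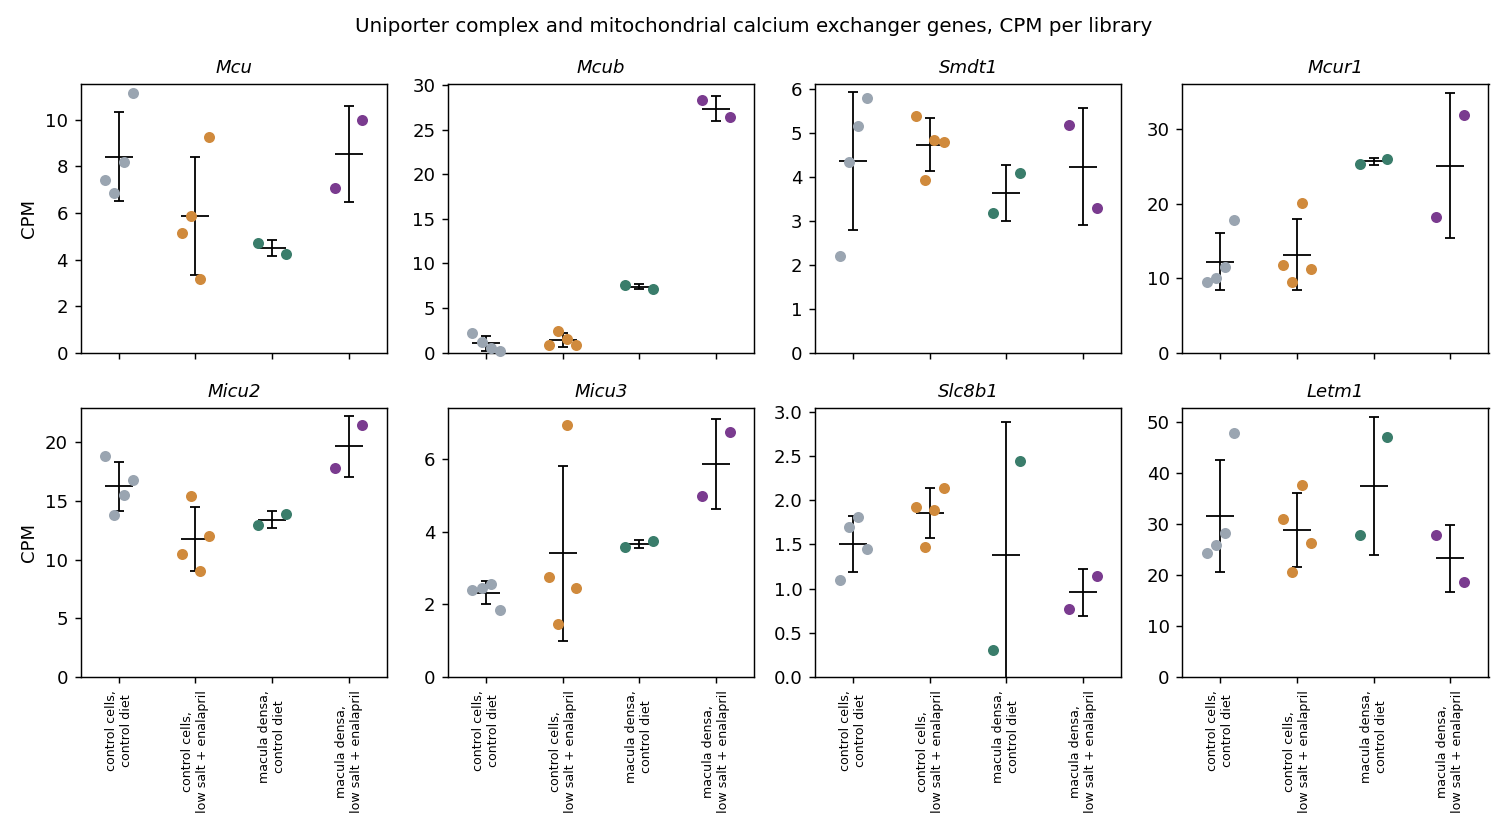
Levels of the 8 genes in CPM (vertical axes, each from 0) in the 4 groups, with a point per library and bars for mean ± SD (n = 2 macula densa, n = 4 control-cell libraries per diet; a bar that would pass below 0 ends at the axis). Mcub stands at 26.4 and 28.4 CPM in treated macula densa cells and at no more than 2.45 CPM in any control-cell library, while each of the other 7 genes overlaps between the cell populations on at least 1 diet.

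Mcu, the pore-forming subunit, was not higher in macula densa cells on control diet, as Mcub was. Its levels in control cells on control diet were 7.44, 6.86, 8.19 and 11.2 CPM, and those of treated mice were 5.15, 5.88, 3.15 and 9.26 CPM. Macula densa cells had 4.72 and 4.24 CPM on control diet and 7.09 and 10.01 CPM after treatment. On control diet both macula densa libraries lay below all 4 of control cells, but after treatment the ranges overlapped. The difference on control diet was -0.91 (SE 0.37), which did not pass, with an edgeR adjusted p of 0.16, and it was -0.74 with control-cell replicate 4 left out. In treated mice it was 0.53 (SE 0.36), with an edgeR adjusted p of 0.393.

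The treated macula densa libraries were higher in Mcu than those on control diet by 0.93 (SE 0.43), with an edgeR adjusted p of 0.443. In control cells the difference was -0.50 (SE 0.30), with an edgeR adjusted p of 0.913. The difference between these diet effects was 1.44 (SE 0.52) in Mcu. It had an unadjusted p of 0.0168 and an edgeR adjusted p of 0.654 and did not pass.

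Because the 2 pore subunits can share a channel, the Mcub share of the summed Mcub and Mcu counts was computed in each library with an exact (Clopper-Pearson) binomial interval. It was 61.7% (95% interval 52.4% to 70.4%) and 62.9% (54.3% to 70.9%) in macula densa cells on control diet. In treated mice it was 80.0% (73.5% to 85.5%) and 72.5% (66.1% to 78.3%). Control cells on control diet had shares of 22.7%, 15.1%, 5.49% and 1.82%, with intervals that together ran from 0.221% to 32.9%. Those of treated mice had shares of 14.1%, 29.4%, 31.8% and 8.08%, from 3.55% to 54.9%. Every macula densa library held more Mcub than Mcu counts and every control-cell library held fewer. The group means were 62.3 ± 0.842% (SD, n = 2) and 76.3 ± 5.29% (SD, n = 2) in macula densa cells against 11.3 ± 9.46% and 20.9 ± 11.6% (SD, n = 4 each) in control cells. Without replicate 4 the mean of control cells on control diet was 14.4 ± 8.64% (SD, n = 3). The interval of the second treated macula densa library overlapped those of both libraries on control diet, and that of the first did not. These intervals treat each count as a separate molecule, which reads that carry no molecular identifier need not be, and leave out the spread between libraries. They may thus be too narrow, and their overlap is not a test.

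**Figure D2:**
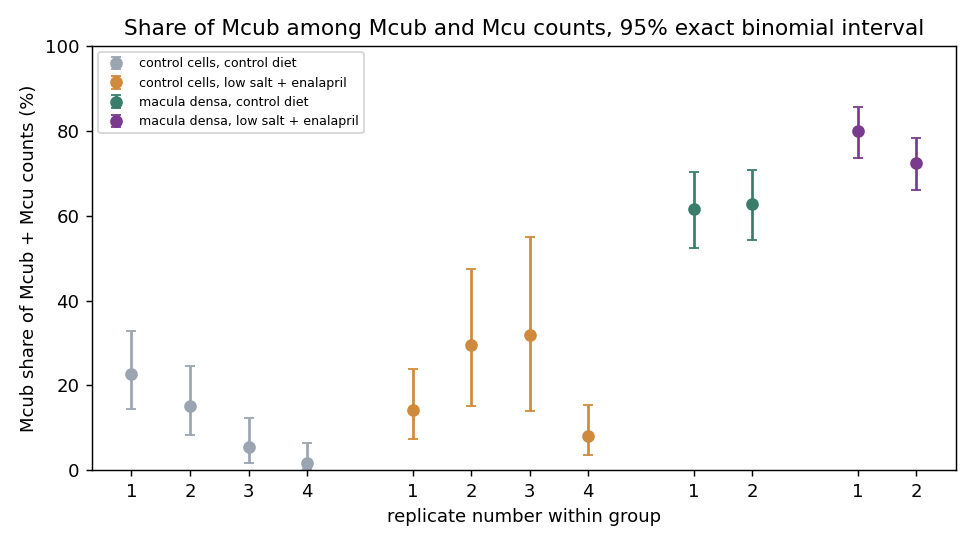
Mcub share of the summed Mcub and Mcu counts in percent (vertical axis, 0 to 100) in each library, by group and replicate number (horizontal axis), with 95% exact binomial intervals. The 4 macula densa libraries sit between 61.7% and 80.0% and the 8 control-cell libraries between 1.82% and 31.8%.

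The Mcub transcript is shorter than that of Mcu, so the ratio of levels is larger per base. Per kilobase of the longest transcript (1318 and 2872 bases), the Mcub level was 3.51 to 3.69 times that of Mcu in macula densa cells on control diet and 5.75 to 8.72 times after treatment. In control cells it was 0.0404 to 0.641 times on control diet and 0.192 to 1.02 times after treatment. With the union of all annotated exons as length, in which Mcu spans 6936 bases, the ratios in macula densa cells were 8.47 to 8.91 and 13.9 to 21.1. In control cells they were then 0.0975 to 1.55 and 0.463 to 2.46, above 1 in 3 of the 8 libraries.

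Smdt1 encodes EMRE (ENSMUSG00000022452, chr15:82338959-82349091, plus strand). It measured 3.18 and 4.07 CPM in macula densa cells on control diet and 5.17 and 3.28 CPM after treatment. Control cells ranged from 2.19 to 5.79 CPM on control diet and from 3.92 to 5.38 CPM after treatment. The ranges overlapped on both diets. Averaged over the diets, the difference was -0.22 (SE 0.27, 95% interval -0.80 to 0.36), with an edgeR adjusted p of 0.6. Smdt1 shares 245 exon bases with Pheta2 on the same strand. Pheta2 had 11 counts over all libraries, so its reads could have added little.

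Mcur1, a scaffold that is known for promoting assembly of the uniporter, was the single gene of the 7 beside Mcub that passed in any of the 6 comparisons. It lies on the minus strand at chr13:43538393-43560191 (ENSMUSG00000021371). Macula densa cells had 25.3 and 26.1 CPM on control diet and 18.2 and 32.0 CPM after treatment. Control cells had 9.51, 10.1, 11.5 and 17.8 CPM on control diet and 11.8, 9.55, 20.2 and 11.2 CPM after treatment. Both macula densa libraries on control diet were above the control cells, while after treatment control-cell replicate 3 lay above macula densa replicate 1.

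Averaged over both diets, Mcur1 was higher in macula densa cells by 1.005 (SE 0.24, a 2.01-fold level), with an edgeR adjusted p of 0.0116. That was 1 of 7 genes in a comparison in which 21.3% of the 14180 genes tested passed, 7.48% as higher and 13.9% as lower in macula densa cells, so the count is not above the background. The difference was 1.07 (SE 0.33) on control diet, with an edgeR adjusted p of 0.0759, and 0.94 (SE 0.34) after treatment, with an edgeR adjusted p of 0.112. Without control-cell replicate 4 on control diet, it was 1.31 on that diet, with an edgeR adjusted p of 0.0134, and 1.12 averaged, with 0.00212. The averaged call rested on the second macula densa library of each diet. It was 0.77 with an edgeR adjusted p of 0.0942 without treated replicate 2, and 0.99 with 0.054 without replicate 2 on control diet. In the 4 pairs with a shared description number, Mcur1 was 0.91 to 1.496 higher in macula densa cells.

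Micu2 and Micu3 encode calcium-sensing gatekeepers of the pore, and Micu3 is best known from brain. Micu2 lies on the minus strand at chr14:57916261-57999262 (ENSMUSG00000021973) and Micu3 on the plus strand at chr8:40307458-40386308 (ENSMUSG00000039478). Micu2 measured 12.9 and 13.9 CPM in macula densa cells on control diet and 17.8 and 21.5 CPM after treatment. In control cells it measured 18.8, 13.8, 15.5 and 16.8 CPM on control diet and 10.5, 15.4, 9.03 and 12 CPM after treatment. It therefore overlapped between the populations on control diet, but not after treatment, where macula densa cells were the higher ones.

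The difference between the cells in Micu2 was -0.27 (SE 0.24) on control diet, with an edgeR adjusted p of 0.531, and 0.75 (SE 0.23) after treatment, with 0.0716. Neither passed. In treated mice, leaving out control-cell replicate 2 gave 0.90, with an edgeR adjusted p of 0.0489. The diet difference in Micu2 was 0.55 (SE 0.27, edgeR adjusted p 0.476) in macula densa cells and -0.47 (SE 0.19, edgeR adjusted p 0.727) in control cells. The difference between these was 1.02 (SE 0.33), with an unadjusted p of 0.00957 and an edgeR adjusted p of 0.633. Mcu and Micu2 thus had the same signs in both diet comparisons, and neither passed in either of them.

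Micu3 measured 3.59 and 3.75 CPM in macula densa cells on control diet and 4.98 and 6.73 CPM after treatment. Control cells had 1.86 to 2.57 CPM on control diet. In treated mice they had 2.77, 1.47, 6.93 and 2.44 CPM, so that replicate 3 was above both macula densa libraries. Averaged over the diets, the difference was 0.73 (SE 0.33), with an edgeR adjusted p of 0.133, and without that replicate it was 1.002, with 0.012. Micu3 shares 202 exon bases with Fgf20 on the opposite strand. Fgf20 was not used here, and no source used here says whether counting was by strand.

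Calcium leaves the matrix through the sodium and lithium exchanger encoded by Slc8b1, while Letm1 encodes an inner membrane protein of cation and proton exchange. Letm1 (ENSMUSG00000005299, chr5:33739673-33782817, minus strand) ranged from 18.7 to 47.9 CPM over the libraries. Macula densa libraries had 27.9 and 47.1 CPM on control diet and 28.0 and 18.7 CPM after treatment, and both ends lay near those of the control cells, at 20.6 to 47.9 CPM. The averaged difference was -0.03 (SE 0.24), with an edgeR adjusted p of 0.945 and a 95% interval from -0.56 to 0.50. Its sign changed under several alternative settings, and it was 0.10 with control-cell replicate 4 on control diet left out.

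Slc8b1 (ENSMUSG00000032754, chr5:120511168-120534024, plus strand) was counted few times. It had 0.308 and 2.44 CPM in macula densa cells on control diet, from 3 and 30 counts, and 0.766 and 1.15 CPM after treatment, from 4 and 7 counts. Control cells had 1.09 to 1.81 CPM on control diet and 1.47 to 2.14 CPM after treatment. After treatment the macula densa libraries lay below all control-cell libraries. The averaged difference was -0.53 (SE 0.46), with an edgeR adjusted p of 0.449 and a 95% interval from -1.53 to 0.47. With the macula densa library of 30 counts left out it was -1.60, with an edgeR adjusted p of 0.0403, and without the library of 3 counts it was -0.15. The sign of the averaged difference stayed the same in every setting run for it, while the size and the call moved.

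Counted over the 7 genes other than Mcub, 0 passed edgeR between the cells on control diet, where 6.61% of all genes tested passed. At an unadjusted p under 0.05 there were 2 (Mcu and Mcur1), against 24.2% of all genes, and DESeq2 called 1, against 14.1%. In treated mice 0 passed against 7.27% of all genes, with 2 at an unadjusted p under 0.05 (Mcur1 and Micu2), against 25.3%, and 1 by DESeq2, against 13.6%. For the diet in macula densa cells 0 of the 7 passed, with 1 at an unadjusted p under 0.05 (Mcu) and 0 by DESeq2. Among all genes 0% passed that comparison under edgeR, with 1594 genes (11.2%) at an unadjusted p under 0.05 and 93 (0.656%) called by DESeq2. The diet in control cells gave 0 of the 7, with 1 at an unadjusted p under 0.05 (Micu2) and 0 by DESeq2, against 0.00705% of all genes by edgeR, 6.45% at an unadjusted p under 0.05 and 0.522% by DESeq2. For the difference between the diet effects, 0 of 7 and 0% of all genes passed edgeR. DESeq2 called 0 of the 7 and 13 (0.0917%) of all genes, and an unadjusted p under 0.05 was reached by 2 of the 7 and by 997 (7.03%) of all genes. With the control-cell library that stood apart left out, the fit gave averaged differences of 0.25 in Micu2, 0.69 in Micu3, -0.14 in Smdt1 and -0.54 in Slc8b1, and none of these 4 passed, with edgeR adjusted p-values of 0.31, 0.149, 0.738 and 0.446. It left the diet difference in control cells at -0.33 in Mcu and -0.46 in Micu2.

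Groups did not overlap in 3 of the 7 genes on control diet (Mcur1 and Micu3 higher and Mcu lower in macula densa cells), against 31.9% of all genes tested. In treated mice this held for 2 of 7 (Micu2 higher, Slc8b1 lower), against 34.8%. Between the diets in macula densa cells it held for 3 of 7 (Mcu, Micu2 and Micu3, all higher after treatment), against 40.6%, and in control cells for 0 of 7, against 4.2%. None of the 7 separated the populations in the same direction on both diets, as Mcub did. Of all genes, 6.02% were higher and 7.6% lower on both diets in this way. Without control-cell replicate 4 of the control diet, the same 3 of 7 genes did not overlap on that diet, against 52.2% of all genes, and 0 of 7 did between the diets in control cells, against 9.62%.

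**Figure D3:**
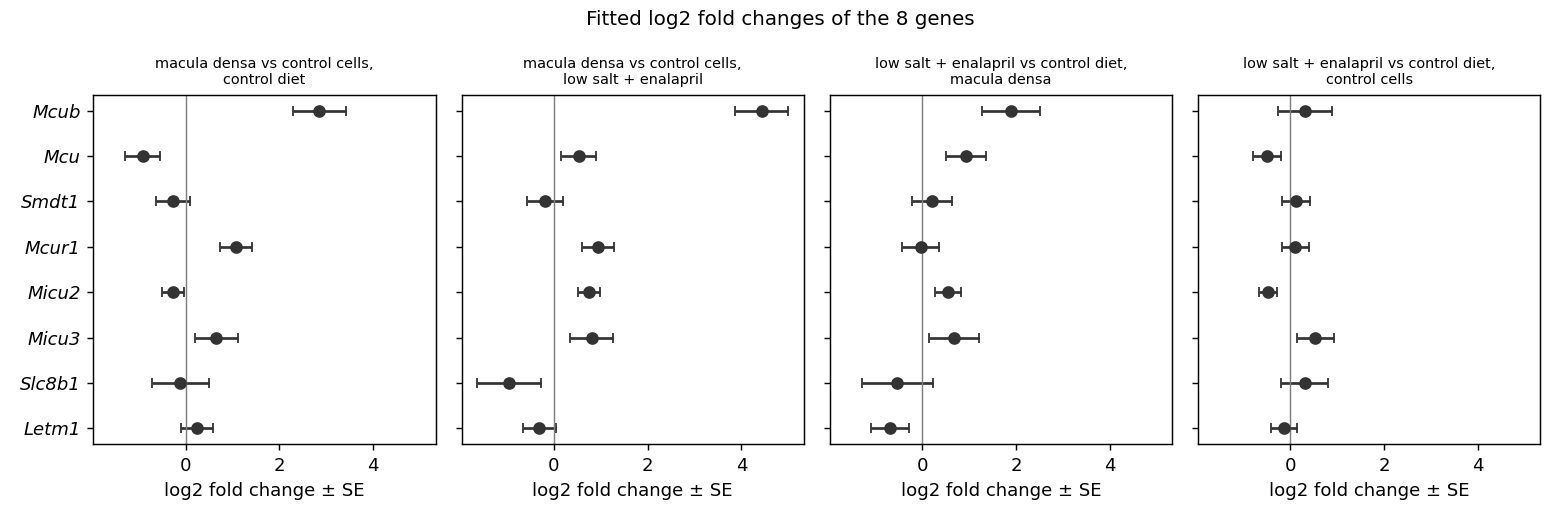
Fitted log2 fold changes (horizontal axes) of the 8 genes (rows) between the cells on each diet and between the diets in each population. Bars show the standard error from the edgeR fit of all 12 libraries. Mcub lies at 2.85 and 4.43 between the cells and Mcur1 at 1.07 and 0.94. None of the other 7 genes passed edgeR in the comparisons drawn, and the comparison averaged over both diets is not drawn.

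Levels of different genes were compared per kilobase of annotated exon. In treated macula densa cells, Mcub came first of the 8 at 20.8 ± 1.04 CPM per kb (SD, n = 2), beyond the spread of Micu2, the next at 6.37 ± 0.842. Mcur1, Smdt1 and Letm1 followed at 3.55, 2.86 and 2.42 CPM per kb, each within the spread of its neighbour. Mcu at 1.23 and Micu3 at 0.951 did not differ beyond their spread either, and Slc8b1 was lowest at 0.276 CPM per kb. On control diet the macula densa order was Mcub at 5.60 ± 0.227, Micu2 at 4.35, Letm1 at 3.89, Mcur1 at 3.63, Smdt1 at 2.45, Mcu at 0.646, Micu3 at 0.596 and Slc8b1 at 0.397 CPM per kb. In that order Letm1 was within the spread of both its neighbours, Micu2 and Mcur1, because its own spread was wide.

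Control cells placed Mcub lower, at rank 6 on control diet with 0.776 ± 0.673 CPM per kb and at rank 5 after treatment with 1.06 ± 0.580 (SD, n = 4 each). Micu2 led in both, at 5.27 and 3.81 CPM per kb. With the longest transcript as length, Mcub was still first in treated macula densa cells, but rank 4 on control diet and rank 7 in both control-cell groups. On control diet it was then within the spread of Micu2, the gene above it. In control cells on control diet, Mcub had the same ranks without replicate 4, 6 by exon length and 7 by longest transcript.

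The genes whose pattern over the 12 libraries was most like that of Mcub were ranked by the root mean square difference of log2 CPM, each gene centred on its mean, among 6687 genes with a mean of at least 5 CPM. The nearest was Etv1, an ETS family transcription factor, at 0.62, against a median of 1.93 over the genes compared. Etv1 measured 6.83 ± 0.369 and 19.5 ± 5.76 CPM in macula densa cells on control diet and after treatment (SD, n = 2 each), and 1.16 and 1.43 CPM in control cells. Ksr2, a scaffold of the RAF and MEK kinases, followed at 0.73. Ksr2 had mean levels of 16.8 and 28.5 CPM in macula densa cells on the 2 diets and stood at 1.40 and 1.35 CPM in control cells. Tbxas1, thromboxane A synthase, was at 0.77, with 14.6 and 27.2 CPM in macula densa cells and 1.66 and 1.96 CPM in control cells. Thsd4, an extracellular matrix protein gene, was at 0.81 and Tcf24, a helix-loop-helix factor gene, at 0.82. Among the uniporter genes with a mean of at least 5 CPM, Mcur1 was nearest to Mcub at 1.59, rank 343, and Mcu stood at 2.01, rank 4282.

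**Figure D4:**
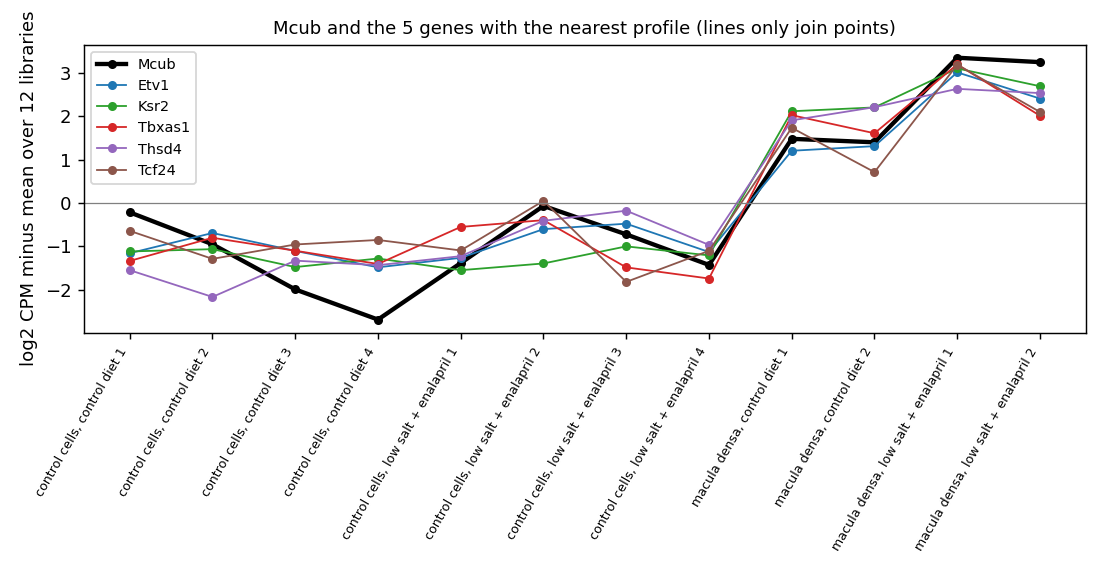
Centred log2 CPM (vertical axis) of Mcub and of the 5 genes with the nearest profile in the 12 libraries (horizontal axis), where lines only join the points of a gene. All 6 genes lie above their own mean in the 4 macula densa libraries, which follows from how Mcub and the 5 genes were chosen.

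Around the channel, 3 lists of mitochondrial genes were compared between the cells. Over all genes tested, 21.3% passed edgeR in the averaged comparison, 34.4% were at an unadjusted p under 0.05 and 26.2% were called by DESeq2. Averaged over the diets, 0 of 11 genes of uniporter assembly and quality control passed edgeR, with 1 at an unadjusted p under 0.05 and 0 by DESeq2. Their median was 0.22, against -0.06 over all genes tested. The nearest to the threshold were Afg3l2 and Yme1l1, which encode mitochondrial proteases, with differences of 0.42 (edgeR adjusted p 0.121) and 0.34 (edgeR adjusted p 0.158). Of 12 calcium-regulated mitochondrial enzymes and carriers 0 passed edgeR, 0 were under an unadjusted p of 0.05 and 0 were called by DESeq2. Their median was 0.11, and the smallest p-values were those of Slc25a23, a calcium-regulated carrier of ATP and phosphate, at 0.57 (edgeR adjusted p 0.147) and Idh3g, a subunit of isocitrate dehydrogenase, at 0.48 (edgeR adjusted p 0.21). With the control-cell library that stood apart left out, 3 of the 4 genes just named from these lists passed, Slc25a23 at 0.77 (edgeR adjusted p 0.00874), Idh3g at 0.66 (0.0195) and Afg3l2 at 0.50 (0.0363). In that fit 3968 of 14079 genes passed averaged over the diets. The 4 genes had been named for the smallest p-values of their lists. Scaled by library totals alone, Slc25a23, Afg3l2 and Yme1l1 also passed edgeR, where 3277 of all genes passed against 3027 in the main fit. Among 17 nuclear-encoded mitochondrial reference genes, 1 was higher and 0 lower, with a median of 0.39 and 13 of 17 above 0. An unadjusted p under 0.05 was reached by 4, and DESeq2 called 3. The gene that passed edgeR was Ndufa9, a complex I subunit, at 0.76 (SE 0.24, edgeR adjusted p 0.0438). It no longer passed in 11 of 12 fits with a library left out, where its adjusted p reached 0.211, and passed at 0.93 (0.0029) without the control-cell library that stood apart.

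On the supply side, genes passed in both directions. Of 13 genes of calcium handover from endoplasmic reticulum to mitochondria, Itpr1 was higher and Itpr2 lower, and of 7 genes of the endoplasmic reticulum store, 3 were higher and Stim1 lower. Itpr1 and Itpr2 encode inositol trisphosphate receptors, the release channels that face mitochondria. Itpr1 measured 206 and 212 CPM in macula densa cells on control diet and 313 and 243 CPM after treatment, above all control-cell libraries at 95.1 to 152 CPM. Its averaged difference was 1.09 (SE 0.15), with an edgeR adjusted p of 0.000658. Itpr2 ran the other way, at 15.1 to 25.6 CPM in macula densa cells against 34.0 to 150 CPM in control cells, a difference of -1.62 (SE 0.34, edgeR adjusted p 0.00638). The highest Itpr2 value came from control-cell replicate 4 on control diet, and without that library the difference was -1.33.

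Stim1, a sensor of the calcium content of the endoplasmic reticulum, was at 0 to 0.820 CPM in macula densa cells, from 0 to 7 counts. The library at 0 allows up to 0.575 CPM, the value of 3 counts there. All 8 control-cell libraries lay between 6.15 and 9.24 CPM. The averaged difference in Stim1 was -4.03 (SE 0.39, edgeR adjusted p 5.4e-05). Without treated macula densa replicate 2 it was -6.52, a fitted value that rests on a group at 0. Stim2, the other sensor, was higher by 0.87 (SE 0.19, edgeR adjusted p 0.00696), at 20.2 to 40.6 CPM in macula densa cells and 11.9 to 22.1 CPM in control cells. A fit with a block for the replicate number in titles, which was not shown to pair the libraries, ended that call (edgeR adjusted p 0.0579). Atp2a2, the pump that fills the store, was higher by 0.82 (SE 0.19, edgeR adjusted p 0.00927), which was 0.66 (0.0750) with the second macula densa library on control diet left out. Canx, a calcium-binding chaperone, was higher by 0.53 (SE 0.16, edgeR adjusted p 0.0341), and it no longer passed in 9 of 12 fits with a library left out, with adjusted p up to 0.134. With the control-cell library that stood apart left out, Itpr1, Stim1, Stim2, Atp2a2 and Canx still passed, at 1.18, -4.03, 0.81, 0.82 and 0.60. In that fit 3968 of 14079 genes passed. Macula densa and control cells differ in many genes, so these counts are read beside the 21.3% of all genes that passed. Their control-cell side holds the same endothelial and podocyte markers, whose part was not tested.

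**Figure D5:**
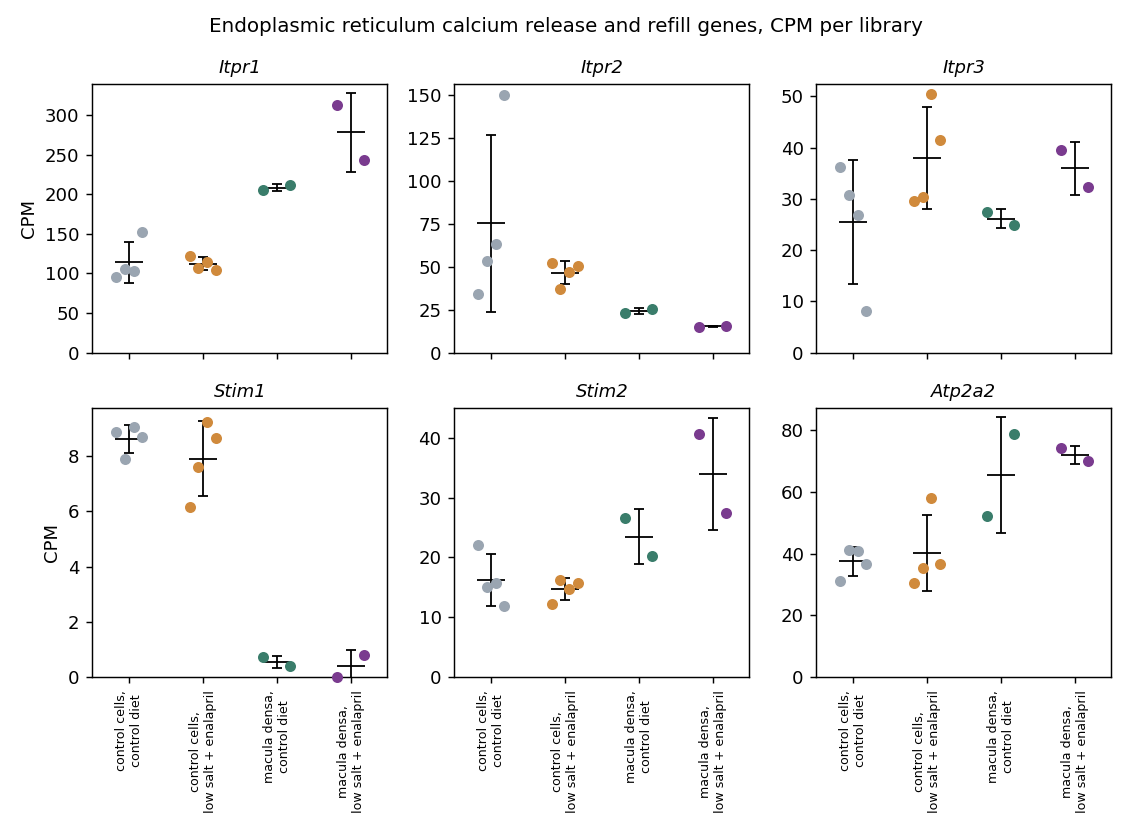
Levels in CPM (vertical axes, each from 0) of genes of the endoplasmic reticulum calcium store and its release channels in the 4 groups, with a point per library and bars for mean ± SD (n = 2 or 4). Stim1 lies at or below 0.820 CPM in the macula densa libraries and between 6.15 and 9.24 CPM in the control cells, and Stim2 and Itpr1 are higher in macula densa cells in the averaged comparison.

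Between the diets, 0 genes of these 5 lists passed edgeR in either population. DESeq2 called 0 of them in macula densa cells and 1, Calr, in control cells. In macula densa cells, the genes of uniporter assembly with the smallest p were Maip1 and Letm2, at 1.08 (edgeR adjusted p 0.361) and 1.09 (edgeR adjusted p 0.474). Maip1, which encodes a partner of the proteases that mature EMRE, had a mean of 2.34 ± 0.262 CPM on control diet and 4.96 ± 0.294 CPM after treatment (SD, n = 2 each). In the handover list these were Mfn2, a tether of mitochondria and endoplasmic reticulum, at -0.92 (edgeR adjusted p 0.296), and Vapb at -0.54 (0.554). In the store list they were Calr, a calcium buffer, at -0.76 (0.442) and Stim2 at 0.54 (0.55). Among the enzymes and carriers they were Pdp1, the calcium-activated pyruvate dehydrogenase phosphatase, at 1.30 (0.439) and Idh3b at -0.75 (0.593), and among the reference genes Uqcrc1 at -0.87 (0.398) and Cox5a at -1.31 (0.426).

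In control cells, Calr had the smallest p of these lists, at -1.02 (unadjusted p 0.00122, edgeR adjusted p 0.36, and 0.0256 with DESeq2), with Canx next in its list at -0.42 (edgeR adjusted p 0.767). The other lists were led by Spg7 and Maip1 at -0.48 and 0.59, Rmdn3 and Itpr2 at -0.96 and -0.69, Slc25a24 and Gpd2 at 0.92 and -0.44, and Ndufs1 and Tfam at -0.80 and -0.47. None of these 8 passed, and their edgeR adjusted p-values ran from 0.694 to 0.864. The mitochondrial reference genes had a median of -0.36 in macula densa cells, with 3 of 17 above 0, and of -0.36 in control cells, with 2 of 17 above 0. The uniporter genes other than Mcub had a median diet difference of 0.21 in macula densa cells and of 0.10 in control cells, with 4 of 7 above 0 in both. The medians over all genes were -0.02 and -0.04.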

How the data were processed

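RNA of sorted cells was sequenced in 12 libraries prepared together with a SMARTer stranded total-RNA kit, per the labels' protocols. The authors deposited estimated counts per gene. Per the submitters' processing notes, STAR 2.61, Partek and the build mm10 were used, and their order and the counting rule, including its use of strand, are not given in the sources used here. Of the deposited values 16.1% were not whole, and all were rounded. The smallest row sum was 10, so genes with fewer counts were not in the table. Starts and ends of 23351 of 23378 genes, including all 8 described, matched GENCODE M21 (GRCm38) after 1 was taken from each end.

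Groups came from the labels. Genes were kept by filterByExpr (minimum count 10, minimum total 15), leaving 14180. Libraries were scaled by trimmed means of M values and fitted together with edgeR 4.0.16 (glmQLFit, glmQLFTest) in R 4.3.3, with a coefficient per group and Benjamini-Hochberg adjustment over all genes at 0.05. The 6 comparisons were cells on each diet and averaged, the 2 diets within each population, and the excess of one diet effect over the other. Log2 CPM for profiles used a prior count of 2. Between 4259020 and 14856542 counts per library, Gm42418, which overlaps ribosomal RNA sequence, took 53.5% to 65.0%, so the depth in coding genes limits the precision. Replicates differed beyond sampling noise, and none were identical. The fit was tested on simulated counts with 4-fold changes in 200 genes per comparison. Between the cells it recovered 66.5% of them on control diet, 62.5% in treated mice and 88.5% averaged. For the diet it recovered 42% in macula densa cells and 80.5% in control cells. For the difference between the diet effects it recovered 15%, so comparisons without calls can miss changes of that size.

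The genes and lists were chosen with earlier results of these data known. Mcub has no p-value for that reason and stays out of counts of genes called. Named from other lists, in the averaged cell comparison and the 2 diet comparisons, were genes past the threshold or, if none, the 2 with the smallest p, and the 5 genes nearest to Mcub in profile. Alternatives were DESeq2 1.42.0 size factors and its Wald test, library totals alone, no filter, mitochondrial and ribosomal RNA genes left out, only the groups compared, blocks for the numbers in titles and in descriptions, and each library left out. A fit of the same 8 libraries without the block was added after seeing the data.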

Additional observations from a re-analysis of the deposited data

How the results depend on the processing

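Of the 7 genes other than Mcub, the numbers passing in the 3 cell comparisons were 0 on control diet, 0 in treated mice and 1 averaged. With scaling by library totals they were 1, 1 and 2. Totals alone moved the median of all genes by diet and averaged from -0.05, -0.06 and -0.06 to 0.12, 0.16 and 0.14. The DESeq2 Wald test called 1 on control diet and 1 in treated mice. With each library left out in turn, the counts spanned 0 to 1, 0 to 2 and 0 to 2. In the diet comparisons and the difference between diet effects the count was 0 in every setting run.

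Numbers in titles and in descriptions were not shown to pair libraries, with correlations of deviations from -0.377 to 0.278 for titles (2 of 14 over 0.1) and from -0.037 to 0.227 for descriptions (1 of 4 over 0.1). In a macula densa group of 2 libraries the deviations are equal and opposite, so these correlations are not separate and cannot settle pairing. The replicate block on description numbers gave 1, 1 and 2 genes passing, and the same 8 libraries without the block gave 1, 2 and 2. The diet comparisons could not be fitted with that block, because each number lies within a diet. Mcur1 averaged lay between 0.98 and 1.29 in the settings that left out no single library. The replicate block on title numbers took Mcub in treated mice from 4.43 to 3.77. No replicate block changed another count of the 7.

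Letm1 averaged was -0.03 and became 0.18 with library totals, 0.21 with the block on title numbers, 0.19 with that on descriptions and 0.22 in the same 8 libraries, and ran from -0.25 to 0.11 with a library left out. Mcub between the diets in control cells ran from -0.0447 to 0.97. With the longest transcript as length, the rank of Mcub was 7, 7 and 4 in place of 6, 5 and 1 in control cells on control diet, control cells in treated mice and macula densa cells on control diet. The cause of these changes was not tested.

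Over all genes, the calls on control diet (938) were 2000 with DESeq2, 468 with only the groups compared, 378 and 2217 with the title and description blocks and 2333 in the same 8 libraries, and 122 to 2490 with a library left out. In treated mice (1031) they were 1922, 396 and 2192 with DESeq2 and the 2 blocks and 2281 in the 8 libraries, and 194 to 1894. Averaged (3027) they were 1908 with the title block and 1680 to 3968. The diet calls in macula densa cells (0) were 93 with DESeq2, 105 with only the groups compared and 0 to 1, those in control cells (1) were 74, 0 and 1 to 5, with 0 under the title block, and the difference between diet effects (0) gave 13 with DESeq2. Leaving out a macula densa library leaves 1 in its group, which is then assumed to vary like the others. Mcub had 2 to 20 counts in a control-cell library and Slc8b1 3 to 30 in any library, which limits their folds.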
